A study of Mus musculus with 9 samples.

Results

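Described here, in a mouse hepatocyte cell line, are 10 genes grouped as genes of mucosal epithelium. Ltf, Olfm4, S100a8 and S100a9 among them are also known from neutrophils. The full set is Pigr, Ltf, Olfm4, Scgb3a1, S100a8, S100a9, Duoxa1, Sftpd, Ms4a8a and Clca3b. They were found by symbol among the 30350 genes of the deposited table, and all 10 were present. The genes were chosen by their differences between the groups of these same libraries, so those differences are given as a description and carry no test. In 7 of the 10 genes every library was lower at each of the treatment steps described next. S100a8, Sftpd and Clca3b did not follow a stepwise order.

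The cells were AML12, an immortalised hepatocyte line that came from a mouse carrying a transgene for human transforming growth factor alpha. In the FFA_SIN group the cells were grown to confluency in DMEM/F12 medium, given free fatty acids for 24 h, and then given free fatty acids with 200 µM sinomenine, an alkaloid of the vine Sinomenium acutum, for 48 h. The FFA group had free fatty acids in DMEM/F12, and the NC group had DMEM/F12 alone. Each group had 3 RNA sequencing libraries. No label states which fatty acids were used, at what dose, or how long the FFA and NC cultures lasted, so sinomenine and any difference in culture time cannot be told apart. Nothing states that the libraries of a group came from separate cultures, so every p-value reflects only how much these libraries vary, and that variation may be technical. FFA_SIN and FFA are compared with the same NC libraries, and FFA_SIN is compared with the same FFA libraries that are compared with NC, so the comparisons are not independent.

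Mucosal surfaces are defended by secreted and membrane-bound proteins of the epithelium itself. Some bind or starve microbes, some carry antibody across the cell layer, some make oxidants at the surface, and some build or thin the mucus. In the liver the bile ducts are the surface most like a mucosa, and rodent hepatocytes are known to carry antibody into bile through the receptor Pigr.

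The values are FPKM, read numbers divided by transcript length and by library depth, so levels can be set side by side between genes. The table implied between 43201346 and 71391844 reads per library, 57912281 to 71391844 in FFA_SIN, 43201346 to 67707660 in FFA and 58862534 to 64460028 in NC. All 10 genes had a mean of at least 1 FPKM in each of the 3 groups, and all passed the filter for testing, which kept the 11659 genes that averaged 1 FPKM or more across all libraries. Of those, 19.1% were higher and 18.4% were lower in FFA than in NC at a limma adjusted p below 0.05. In FFA_SIN against FFA, 13.9% were higher and 17.3% were lower, and in FFA_SIN against NC 24.7% were higher and 26.5% were lower. The share of tested genes with every library of the treated group below every library of its comparison group was 24.1% for FFA against NC, 25.1% for FFA_SIN against FFA and 31.0% for FFA_SIN against NC.

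Across the 10 genes, every library lay below in 9 for FFA against NC, in 8 for FFA_SIN against FFA and in 10 for FFA_SIN against NC. These counts follow from how the genes were chosen, and nothing is read from them against the shares above. The median log2 fold change of the 10, on the log2(FPKM + 1) scale used for every fold change here, was -1.28 for FFA against NC, -1.58 for FFA_SIN against FFA and -2.13 for FFA_SIN against NC. The median over all tested genes was 0.004, -0.009 and -0.006 in the same 3 comparisons. In bulk RNA, fewer cells that express a gene and less RNA per cell cannot be told apart.

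**Figure D1:**
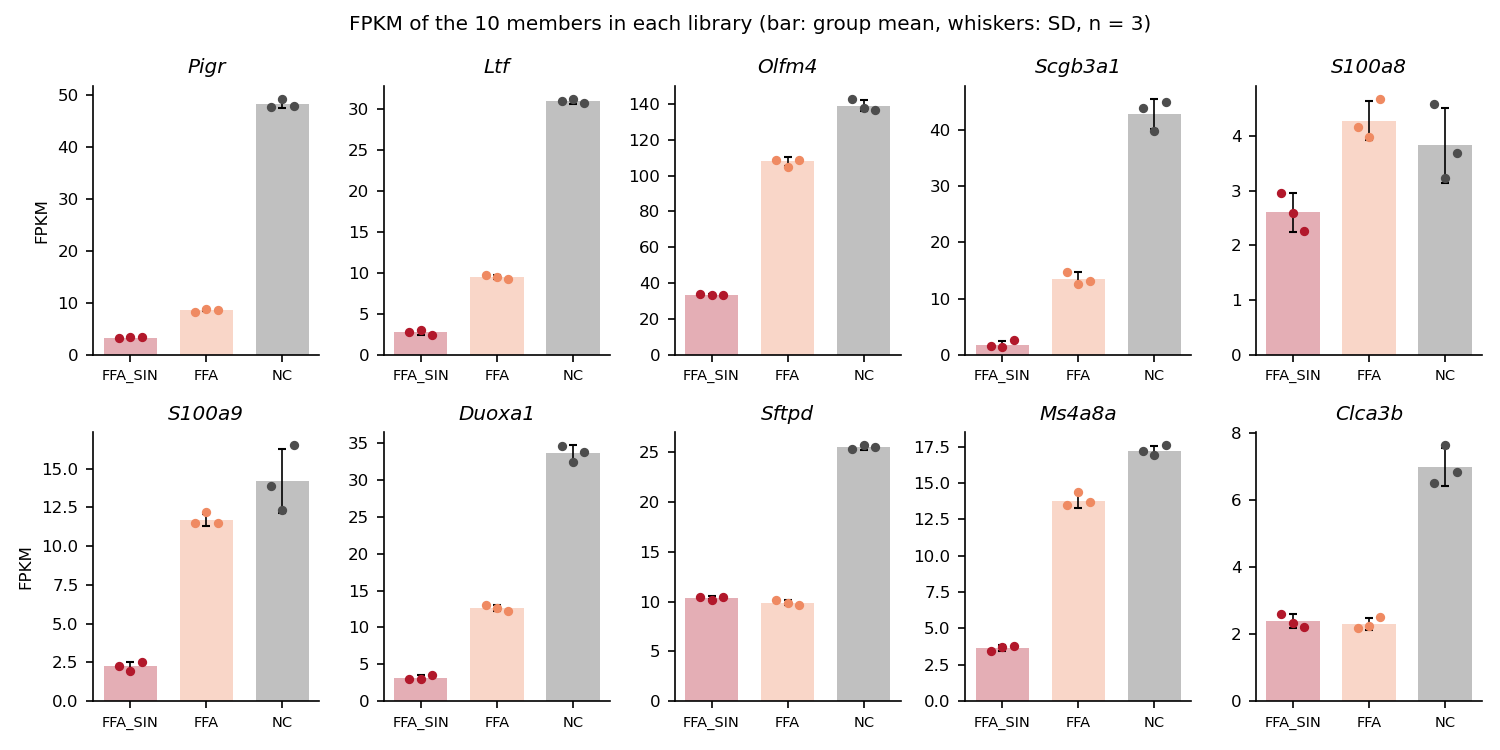
FPKM of each of the 10 genes in the 9 libraries, with each gene on its own linear axis. Points are libraries, bars are group means and whiskers are SD with n = 3, in the order FFA_SIN, FFA and NC. In FFA_SIN, Pigr averaged 3.27 FPKM and Scgb3a1 1.79 FPKM, against 48.3 and 42.9 FPKM in NC, while S100a8 in FFA overlapped NC and Clca3b in FFA_SIN overlapped FFA.

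Pigr encodes the polymeric immunoglobulin receptor, which carries dimeric IgA across epithelial cells into mucus and bile. Pigr was at 3.15, 3.37 and 3.29 FPKM in the FFA_SIN libraries, at 8.28, 8.74 and 8.59 FPKM in the FFA libraries and at 47.7, 49.3 and 47.9 FPKM in the NC libraries. The 3 groups did not overlap, and the wider gap lay between FFA and NC. Pigr in FFA was at 17.7% of its NC mean, and in FFA_SIN at 38.3% of its FFA mean and 6.77% of its NC mean. On log2 ratios of mean FPKM with nothing added, 64.3% of its difference between FFA_SIN and NC was already present in FFA. Among the tested genes Pigr stood at the 24.7th percentile of level in FFA_SIN, at the 51.5th in FFA and at the 90.7th in NC. Its log2 fold change was the third lowest of the 11659 tested genes for FFA against NC, at -2.37 (SE 0.03).

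Ltf encodes lactoferrin, an iron-binding protein of milk, tears and neutrophil granules that withholds iron from bacteria. Ltf was at 2.74, 2.97 and 2.38 FPKM in FFA_SIN, at 9.68, 9.51 and 9.17 FPKM in FFA and at 30.9, 31.2 and 30.7 FPKM in NC. The groups were again apart, and here the steps were of similar size, with log2 fold changes of -1.5 (SE 0.05) for FFA_SIN against FFA and -1.61 (SE 0.05) for FFA against NC. Ltf in FFA_SIN was at 8.71% of its NC mean.

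S100a8 and S100a9 encode the subunits of calprotectin, a calcium-binding complex that ties up zinc and manganese and is abundant in neutrophils and in stimulated epithelium. S100a9 was at 2.28, 1.92 and 2.50 FPKM in FFA_SIN, at 11.5, 12.2 and 11.5 FPKM in FFA and at 13.9, 12.3 and 16.5 FPKM in NC. All FFA_SIN libraries were low, whereas the highest FFA library and the lowest NC library nearly met. S100a9 in FFA_SIN was at 19.0% of its FFA mean, and its log2 fold change of -1.98 (SE 0.09) was the second lowest of all tested genes in that comparison. S100a8 was at 2.96, 2.59 and 2.26 FPKM in FFA_SIN, at 4.17, 3.98 and 4.68 FPKM in FFA and at 4.58, 3.23 and 3.69 FPKM in NC. For S100a8 the FFA and NC libraries overlapped and only the FFA_SIN libraries stood apart, at 60.9% of the FFA mean and 67.9% of the NC mean. The subunits therefore did not keep the same ratio, since S100a9 averaged 2.23 ± 0.291 FPKM and S100a8 2.60 ± 0.351 FPKM in FFA_SIN, against 14.2 ± 2.09 and 3.83 ± 0.684 FPKM in NC (SD, n = 3 each). These values rest on few reads, 104 to 128 for S100a8 and 58 to 93 for S100a9 in the FFA_SIN libraries.

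Sftpd encodes surfactant protein D, a collectin that binds sugars on microbes in lung and other mucosal fluids. Sftpd was at 10.5, 10.2 and 10.5 FPKM in FFA_SIN, at 10.2, 9.85 and 9.69 FPKM in FFA and at 25.3, 25.7 and 25.5 FPKM in NC. The NC libraries were high and the FFA_SIN libraries lay slightly above the FFA libraries, at 105% of their mean. Sftpd differed from NC by nearly the same log2 fold change in FFA_SIN, -1.22 (SE 0.02), and in FFA, -1.28 (SE 0.02).

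Olfm4 encodes olfactomedin 4, a secreted glycoprotein of intestinal crypts and neutrophils that is known to rise in inflamed gut. It was the most abundant of the 10 in each group, at 33.8, 33.5 and 33.2 FPKM in FFA_SIN, at 109, 105 and 109 FPKM in FFA and at 143, 138 and 137 FPKM in NC. No groups overlapped, but the wider gap was between FFA_SIN and FFA. Olfm4 in FFA was at 77.2% of its NC mean, and in FFA_SIN at 31.1% of its FFA mean. On log2 ratios of mean FPKM with nothing added, only 18.2% of its difference between FFA_SIN and NC was present in FFA.

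Scgb3a1 encodes a small secretoglobin, a family of secreted proteins of airway and other glandular epithelium. Scgb3a1 was at 1.56, 1.30 and 2.51 FPKM in FFA_SIN, at 14.8, 12.6 and 13.1 FPKM in FFA and at 44.0, 39.8 and 45.0 FPKM in NC. Every library followed the group order, and the ratio was the widest of the 10 genes, with FFA_SIN at 4.16% of the NC mean and 13.2% of the FFA mean. Its log2 fold change of -2.40 (SE 0.13) was the lowest of all 11659 tested genes for FFA_SIN against FFA. Those FFA_SIN values came from 58, 45 and 107 reads, and the library with the fewest reads gave the lowest FPKM.

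Duoxa1 encodes the maturation factor that, in human cells, brings the dual oxidase Duox1 to the plasma membrane, where the oxidase releases hydrogen peroxide. Duoxa1 was at 2.97, 2.96 and 3.53 FPKM in FFA_SIN, at 13.1, 12.6 and 12.2 FPKM in FFA and at 34.6, 32.4 and 33.8 FPKM in NC. The groups did not overlap, and Duoxa1 in FFA_SIN was at 24.9% of its FFA mean and 9.38% of its NC mean. Of its possible partners, Duox1 averaged 0.021 ± 0.0135 FPKM in FFA_SIN, 0.0334 ± 0.00737 FPKM in FFA and 0.0689 ± 0.0179 FPKM in NC (SD, n = 3 each), so the oxidase it is named for was hardly detected. The other dual oxidase, Duox2, averaged 1.98 ± 0.0715 FPKM in FFA_SIN, 3.73 ± 0.107 FPKM in FFA and 5.53 ± 0.203 FPKM in NC (SD, n = 3 each). Duox2 fell in each comparison, by 0.67 (SE 0.04) on the log2 scale for FFA_SIN against FFA (limma adjusted p = 1.99e-06) and by 0.46 (SE 0.04) for FFA against NC (limma adjusted p = 1.84e-05). Duoxa2, the maturation factor of Duox2, was under the filter at 0.0732 FPKM in FFA_SIN, 0.318 FPKM in FFA and 0.968 FPKM in NC. Part of the Duoxa1 transcript, 15.3% of its 50-base stretches in the GENCODE vM21 annotation of GRCm38, is also found in Duoxa2 on the opposite strand. No source used here states whether the counting used strand, so reads of either gene could be counted for the other. Duoxa2 was far lower than Duoxa1 in each group, so its values are the more exposed to this.

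Ms4a8a encodes a membrane-spanning protein of the Ms4a family. It was at 3.44, 3.71 and 3.80 FPKM in FFA_SIN, at 13.5, 14.4 and 13.7 FPKM in FFA and at 17.2, 16.9 and 17.6 FPKM in NC. The FFA libraries lay near those of NC, at 80.3% of their mean, and the FFA_SIN libraries lay far below both, at 26.4% of the FFA mean. Clca3b belongs to a family of secreted or surface proteins named as regulators of calcium-activated chloride channels, some of which modify mucus. Clca3b was at 2.59, 2.34 and 2.20 FPKM in FFA_SIN, at 2.18, 2.23 and 2.50 FPKM in FFA and at 6.51, 7.62 and 6.82 FPKM in NC. Like Sftpd it was high in NC alone, and its FFA_SIN and FFA libraries overlapped. Clca3b shares 6.68% of its 50-base stretches with Clca3a2 and Clca3a1, so a small part of its reads could belong to either.

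**Figure D2:**
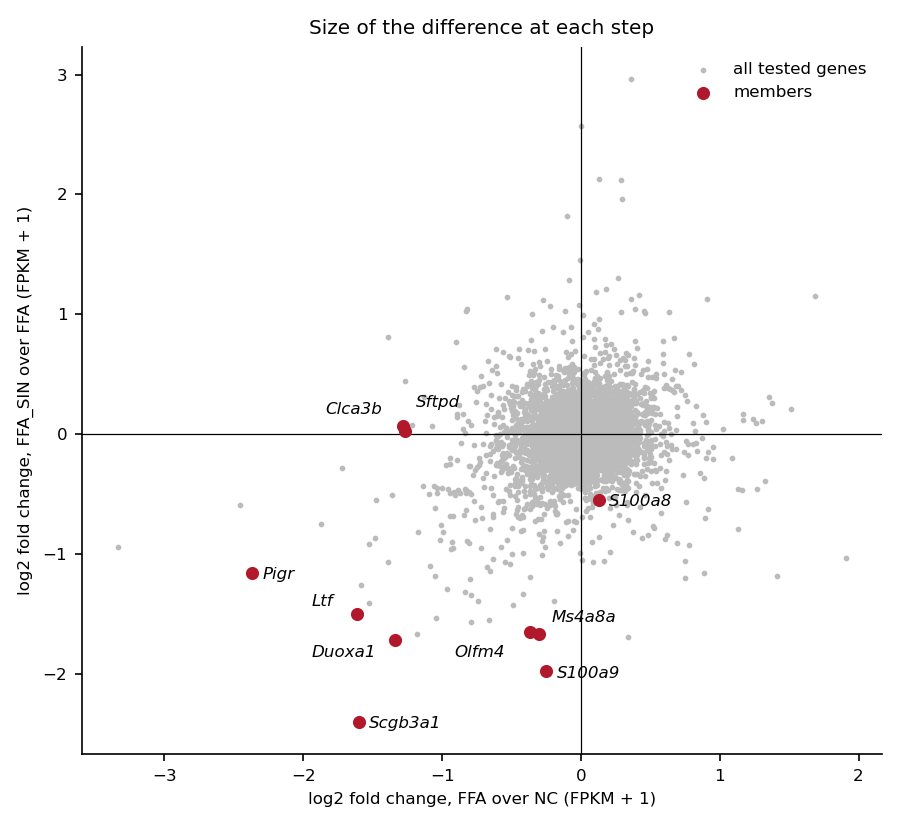
Log2 fold change of FFA over NC (horizontal axis) against that of FFA_SIN over FFA (vertical axis), both on log2(FPKM + 1), for all 11659 tested genes in grey and the 10 genes described here in red. Scgb3a1 lies lowest at -2.40 on the vertical axis and Pigr is the leftmost red point at -2.37 on the horizontal axis. Both axes use the same FFA libraries.

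Grouped after their values were seen, the 10 genes fell into 4 patterns, shown in the plot of both steps. Pigr, Ltf, Scgb3a1 and Duoxa1 were below a log2 fold change of -1 at both steps. Olfm4, S100a9 and Ms4a8a were between -0.37 and -0.25 for FFA against NC and between -1.98 and -1.65 for FFA_SIN against FFA. Sftpd and Clca3b were at -1.28 and -1.27 for FFA against NC and at 0.07 and 0.03 for FFA_SIN against FFA. S100a8 was at 0.13 (SE 0.11) for FFA against NC and at -0.55 (SE 0.11) for FFA_SIN against FFA.

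The order of levels also changed between the groups. In NC it ran Olfm4, Pigr, Scgb3a1, Duoxa1, Ltf, Sftpd, Ms4a8a, S100a9, Clca3b and S100a8 from high to low, and no neighbours in that order overlapped. In FFA it ran Olfm4, Ms4a8a, Scgb3a1, Duoxa1, S100a9, Sftpd, Ltf, Pigr, S100a8 and Clca3b, with Ms4a8a and Scgb3a1, and Scgb3a1 and Duoxa1, overlapping. In FFA_SIN only Olfm4 and Sftpd stood apart. Ms4a8a came next and did not overlap Pigr, the gene after it, but its lowest library lay below the highest of Duoxa1. From Pigr down to Scgb3a1 each gene overlapped its neighbour in the order. Sftpd, with a mean of 10.4 ± 0.170 FPKM, was thus second in FFA_SIN, although it was sixth in NC.

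The genes lie on 7 chromosomes and were looked at for what else they share. S100a8 and S100a9 are direct neighbours on chromosome 3, where Clca3b also lies, and Olfm4 and Sftpd share chromosome 14. Of 36 other protein-coding genes lying within 2 places of a member in RefSeq order, 31 were in the table and 10 passed the filter. For FFA against NC 5 of these 10 were lower and 0 higher, for FFA_SIN against FFA 7 were lower and 0 higher, and for FFA_SIN against NC 7 were lower and 1 higher (limma adjusted p below 0.05). Over all tested genes 18.4%, 17.3% and 26.5% were lower and 19.1%, 13.9% and 24.7% higher in the same comparisons. The neighbours were added after values were seen. They include relatives of the members, Duox2, Clca3a2, S100a6 and S100a7a, that are also in the lists below. No regional difference is read from these counts. The gene that was higher was Lrrfip2, beside Ltf, at 8.12 FPKM in FFA_SIN and 7.55 FPKM in NC, with a limma adjusted p of 0.0449 that ran from 0.0184 to 0.144 over the alternative settings. Among the 10 tested neighbours, the lowest log2 fold change for FFA_SIN against NC was that of Shf, an adaptor protein gene on the far side of Duox1 from Duoxa1. Shf had means of 11.1 ± 0.616 FPKM in FFA_SIN, 23.3 ± 0.560 FPKM in FFA and 33.2 ± 0.590 FPKM in NC (SD, n = 3 each). Shf had a log2 fold change of -1.0 (SE 0.04) for FFA_SIN against FFA (limma adjusted p = 1.25e-07) and of -0.49 (SE 0.04) for FFA against NC (limma adjusted p = 1.09e-05). Neighbours of Sftpd and Ms4a8a were all under the filter or not matched.

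Start-site sequence was matched in RefSeq (GRCm38.p6) for 9 of the 10 genes, Sftpd being the exception, over 250 bases before and 50 bases after each start. The 5 promoters below are shown because they belong to the genes with the widest differences at the FFA step (Pigr) and at the sinomenine step (Scgb3a1), to the most abundant of the 10 (Olfm4) and to the adjacent pair whose members differed unequally (S100a8 and S100a9). Capitals mark matches to the 7 motifs searched on both strands, which were the TATA box (TATAAA), NF-kB (GGGNNNTCC), C/EBP (TTNNGCAA), STAT (TTCNNNGAA), AP-1 (TGANTCA), HNF1 (TTAATNATT) and the ETS site of epithelial factors (AGGAAGT). Each sequence runs 5′ to 3′ on the strand of its gene. Pigr lies at chr1:130826434-130826733 on the plus strand, Scgb3a1 at chr11:49663345-49663644 on the plus strand, Olfm4 at chr14:80000052-80000351 on the plus strand, S100a8 at chr3:90668821-90669120 on the plus strand and S100a9 at chr3:90695672-90695971 on the minus strand.
Pigr: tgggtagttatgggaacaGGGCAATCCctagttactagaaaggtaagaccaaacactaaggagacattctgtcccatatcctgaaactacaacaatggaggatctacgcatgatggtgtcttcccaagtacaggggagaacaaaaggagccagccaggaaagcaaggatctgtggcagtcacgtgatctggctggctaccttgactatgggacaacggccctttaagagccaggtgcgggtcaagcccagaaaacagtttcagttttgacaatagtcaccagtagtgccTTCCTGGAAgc
Scgb3a1: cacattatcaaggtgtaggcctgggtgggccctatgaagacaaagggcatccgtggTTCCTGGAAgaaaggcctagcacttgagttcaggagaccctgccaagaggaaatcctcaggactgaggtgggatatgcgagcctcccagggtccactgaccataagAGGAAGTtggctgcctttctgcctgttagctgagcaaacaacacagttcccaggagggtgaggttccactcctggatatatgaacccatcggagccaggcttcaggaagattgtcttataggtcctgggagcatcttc
Olfm4: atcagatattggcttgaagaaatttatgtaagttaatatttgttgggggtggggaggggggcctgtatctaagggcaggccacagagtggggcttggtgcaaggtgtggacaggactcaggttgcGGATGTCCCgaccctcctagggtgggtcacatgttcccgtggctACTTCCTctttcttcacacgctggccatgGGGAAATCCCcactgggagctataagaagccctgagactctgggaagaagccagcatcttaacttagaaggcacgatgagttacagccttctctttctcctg
S100a8: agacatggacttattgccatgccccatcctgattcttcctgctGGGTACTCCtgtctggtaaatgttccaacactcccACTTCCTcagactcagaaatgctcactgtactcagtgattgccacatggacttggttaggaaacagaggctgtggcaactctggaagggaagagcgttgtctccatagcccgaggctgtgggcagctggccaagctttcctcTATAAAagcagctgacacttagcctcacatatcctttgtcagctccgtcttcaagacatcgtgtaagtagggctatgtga
S100a9: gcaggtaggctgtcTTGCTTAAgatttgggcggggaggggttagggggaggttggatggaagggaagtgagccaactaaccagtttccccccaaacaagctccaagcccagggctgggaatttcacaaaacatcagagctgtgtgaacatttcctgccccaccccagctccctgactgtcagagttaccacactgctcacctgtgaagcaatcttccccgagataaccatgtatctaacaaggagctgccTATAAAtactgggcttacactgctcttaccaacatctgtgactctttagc

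The NF-kB letters were present in 4 of the 9 promoters (Pigr, Olfm4, S100a8 and Duoxa1), against 17.5% of all 27025 promoters of the same length. In Olfm4 they matched at 3 places, 2 of which overlap by all but a base in the capital run nearest the start. The ETS letters were in Olfm4, Scgb3a1 and S100a8, against 9.57% of all promoters, and the STAT letters were in Pigr and Scgb3a1, against 8.47%. The C/EBP letters were in Ltf and S100a9 (10.8% of all), the AP-1 letters in Ms4a8a and Clca3b (7.93% of all) and the TATA letters in S100a8 and S100a9 (14.2% of all). The TATA letters began at position -30 from the annotated start in S100a8 but at position 0, the start itself, in S100a9. The STAT letters of Pigr began at position 39, after the start. The HNF1 letters were in none of the 9 and in 1.54% of all. No motif was held by all genes of a pattern and by no other. The 9 promoters held between 2 and 22 CpG pairs with a median of 4, against a median of 7 over all promoters, and Duoxa1 was the member with 22. A match is a run of letters in a window and does not show that a factor binds there.

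Other genes of mucosal defence were read from 4 lists of 137 symbols, of which 125 were in the table and 58 passed the filter. For FFA against NC 9 rose and 25 fell, for FFA_SIN against FFA 10 rose and 31 fell, and for FFA_SIN against NC 14 rose and 32 fell. Over all tested genes 19.1%, 13.9% and 24.7% were higher and 18.4%, 17.3% and 26.5% lower in these comparisons. The median log2 fold change of the 58 was -0.06, -0.16 and -0.22 in these comparisons, against 0.004, -0.009 and -0.006 over all tested genes. The lists were drawn up with earlier results of these libraries known and are not independent evidence of a direction. The filter used the mean over all libraries, so a low gene could pass only through the group where it was high. Calls of such genes are in these counts and are not independent of the filter.

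Of the mucins and mucosal surface proteins, 9 were tested. For FFA against NC 1 rose and 6 fell, for FFA_SIN against FFA 0 rose and 7 fell, and for FFA_SIN against NC 1 rose and 7 fell. The shares of all tested genes were 19.1%, 13.9% and 24.7% higher and 18.4%, 17.3% and 26.5% lower in the same order. Muc13, a membrane mucin of the gut, was at 1.35, 1.14 and 1.10 FPKM in FFA_SIN, at 4.98, 4.80 and 4.70 FPKM in FFA and at 15.8, 15.6 and 15.9 FPKM in NC. The groups stood far apart, and Muc13 fell by 1.41 (SE 0.04) for FFA_SIN against FFA (limma adjusted p = 4.56e-08) and by 1.52 (SE 0.04) for FFA against NC (limma adjusted p = 3.46e-08) on the log2 scale. Muc5b, a gel-forming mucin, averaged 10.3 ± 0.111 FPKM in FFA_SIN, 20.7 ± 0.159 FPKM in FFA and 24.9 ± 1.34 FPKM in NC (SD, n = 3 each). Its larger step was that of FFA_SIN against FFA, where it fell by 0.94 (SE 0.03) on the log2 scale (limma adjusted p = 1.23e-07). Ceacam1, an adhesion molecule of epithelial and bile canalicular membranes, averaged 0.961 FPKM in FFA_SIN, 2.63 FPKM in FFA and 5.41 FPKM in NC. It fell by 0.89 (SE 0.06) for FFA_SIN against FFA (limma adjusted p = 3.54e-06). The membrane protease Tmprss2 also fell at each step, at 8.62 FPKM in FFA_SIN, 13.4 FPKM in FFA and 17.8 FPKM in NC. Tmprss4, another membrane protease, was at 0.248, 0.755 and 2.38 FPKM in the same groups. It passed the filter only through NC, so its calls in the counts above are not independent of the filter.

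Of the mucosal secretions, only 7 of 30 were tested. For FFA against NC 1 rose and 2 fell, for FFA_SIN against FFA 2 rose and 3 fell, and for FFA_SIN against NC 3 rose and 2 fell. Among all tested genes 19.1%, 13.9% and 24.7% were higher and 18.4%, 17.3% and 26.5% lower in these comparisons. With so few genes, nothing is read from these counts. Itln1, an intelectin that binds microbial sugars, averaged 0.999 ± 0.0526 FPKM in FFA_SIN, 2.78 ± 0.397 FPKM in FFA and 9.86 ± 0.464 FPKM in NC (SD, n = 3 each). Its groups did not overlap, and it fell by 0.91 (SE 0.07) for FFA_SIN against FFA (limma adjusted p = 1.24e-05) and by 1.53 (SE 0.07) for FFA against NC (limma adjusted p = 4.49e-07) on the log2 scale. Lyz2, a lysozyme, averaged 1.67 FPKM in FFA_SIN, 2.57 FPKM in FFA and 3.93 FPKM in NC and fell in each comparison. Saa3, an acute-phase serum amyloid, went the other way, at 17.7, 18.2 and 17.8 FPKM in FFA_SIN, at 4.71, 4.08 and 4.25 FPKM in FFA and at 5.32, 4.12 and 4.82 FPKM in NC. Saa3 was high in FFA_SIN alone, where it rose by 1.82 (SE 0.07) over FFA on the log2 scale (limma adjusted p = 1.87e-07). Slpi, an inhibitor of neutrophil proteases, averaged 1.54 FPKM in FFA_SIN, 0.859 FPKM in FFA and 0.621 FPKM in NC. Slpi passed the filter only through FFA_SIN, so its calls in the counts above are not independent of the filter. Its log2 fold change was 0.45 (SE 0.06) for FFA_SIN over FFA. Its call for FFA over NC was lost under some of the alternative settings that tested it. Lcn2, the siderophore-binding lipocalin, was more abundant than any of the 10 genes in each group and averaged 221 ± 4.73 FPKM in FFA_SIN, 226 ± 6.68 FPKM in FFA and 232 ± 7.29 FPKM in NC (SD, n = 3 each). Lcn2 did not pass the test in any comparison (limma adjusted p = 0.494 for FFA_SIN against FFA, 0.332 for FFA against NC and 0.0785 for FFA_SIN against NC). The last of these passed with the replicate number as a block (limma adjusted p = 0.0226) and without NC replicate 2 (limma adjusted p = 0.0256), over a range of 0.0226 to 0.232. Camp, the cathelicidin, reached at most 0.0739 FPKM and was listed at 0 in all NC libraries.

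**Figure D3:**
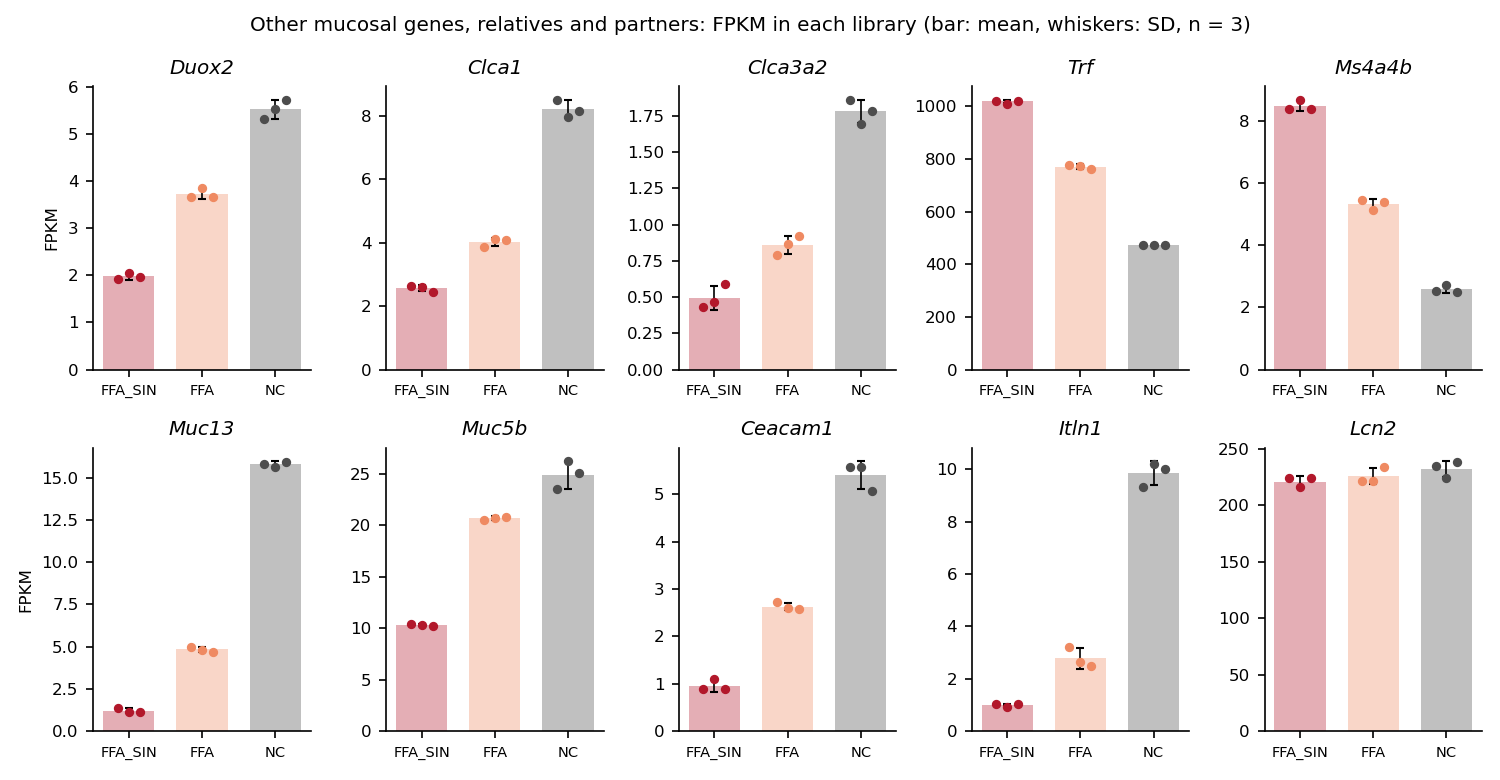
FPKM of 10 partners, relatives and other mucosal genes in the 9 libraries, each on its own linear axis, with bars for means and whiskers for SD with n = 3, in the order FFA_SIN, FFA and NC. Muc13, Itln1, Ceacam1, Duox2, Clca1 and Clca3a2 are lower at each step, Trf and Ms4a4b are higher at each step, and Lcn2 lies between 216 and 238 FPKM in every library.

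Relatives and partners of the 10 genes were called in both directions. Of 16 tested, 4 rose and 7 fell for FFA against NC, 3 rose and 9 fell for FFA_SIN against FFA, and 4 rose and 10 fell for FFA_SIN against NC. All tested genes had shares of 19.1%, 13.9% and 24.7% higher and 18.4%, 17.3% and 26.5% lower in the same comparisons. Trf, the serum transferrin and a close relative of lactoferrin, was at 1020, 1010 and 1020 FPKM in FFA_SIN, at 778, 774 and 762 FPKM in FFA and at 475, 474 and 474 FPKM in NC. Trf is a product of hepatocytes, and its groups were ordered opposite to Ltf, with a rise of 0.40 (SE 0.02) for FFA_SIN over FFA (limma adjusted p = 2.31e-07) and of 0.70 (SE 0.02) for FFA over NC (limma adjusted p = 6.6e-09) on the log2 scale. The relatives of Ms4a8a that passed the filter were likewise higher, with Ms4a4b at 8.48 ± 0.176 FPKM in FFA_SIN, 5.32 ± 0.178 FPKM in FFA and 2.59 ± 0.126 FPKM in NC, and Ms4a4d at 109 ± 2.29, 82.9 ± 1.05 and 54.4 ± 1.75 FPKM in the same groups (SD, n = 3 each). Both rose in each comparison, Ms4a4b by 0.59 (SE 0.04) for FFA_SIN over FFA (limma adjusted p = 3.52e-06). The other listed Ms4a genes were under the filter and untested, and among them Ms4a10 ran the other way, at 0.292 FPKM in FFA_SIN, 0.735 FPKM in FFA and 1.76 FPKM in NC, with no overlap between groups.

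Clca1 and Clca3a2, the relatives of Clca3b that passed the filter, were lower at both steps, whereas the FFA_SIN and FFA libraries of Clca3b overlapped. Of the relatives under the filter, Clca4a was also lower at both steps, while the libraries of Clca2, Clca3a1 and Clca4b overlapped at each step. Clca1, a mucus-modifying protease of goblet cells, averaged 2.58 ± 0.103 FPKM in FFA_SIN, 4.03 ± 0.130 FPKM in FFA and 8.22 ± 0.284 FPKM in NC (SD, n = 3 each). It fell by 0.49 (SE 0.04) for FFA_SIN against FFA (limma adjusted p = 1.26e-05) and by 0.87 (SE 0.04) for FFA against NC (limma adjusted p = 3.17e-07). Clca3a2, which lies beside Clca3b, averaged 0.495 FPKM in FFA_SIN, 0.859 FPKM in FFA and 1.78 FPKM in NC. Clca3a2 passed the filter only through NC. Among the S100 genes near S100a8 and S100a9, S100a6 averaged 1130 ± 48.8 FPKM in FFA_SIN, 1430 ± 30.8 FPKM in FFA and 1440 ± 96.9 FPKM in NC (SD, n = 3 each). S100a6 fell for FFA_SIN against FFA (log2 fold change -0.34, SE 0.05, limma adjusted p = 0.00066) and missed the threshold for FFA against NC (-0.01, SE 0.05, limma adjusted p = 0.867). S100a7a had the pattern of Clca3b, at 0.677 FPKM in FFA_SIN, 0.676 FPKM in FFA and 1.67 FPKM in NC. S100a7a also passed the filter only through NC. S100a16 fell at each step and averaged 26.4 FPKM in FFA_SIN, 36.7 FPKM in FFA and 42.1 FPKM in NC. Jchain, the chain that joins the IgA carried by Pigr, is a plasma cell product and reached at most 0.068 FPKM.

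Of the regulators and receptors of such genes, 26 of 34 were tested. For FFA against NC 3 rose and 10 fell, for FFA_SIN against FFA 5 rose and 12 fell, and for FFA_SIN against NC 6 rose and 13 fell. Across all tested genes 19.1%, 13.9% and 24.7% were higher and 18.4%, 17.3% and 26.5% lower in these comparisons. Klf5, a Kruppel-like factor of epithelial cells, averaged 11.9 ± 0.285 FPKM in FFA_SIN, 20.2 ± 0.256 FPKM in FFA and 25.8 ± 0.868 FPKM in NC (SD, n = 3 each). It stood apart in every group and fell by 0.72 (SE 0.03) for FFA_SIN against FFA (limma adjusted p = 2.07e-07) and by 0.33 (SE 0.03) for FFA against NC (limma adjusted p = 2.92e-05). Nfkbiz encodes IkB-zeta, which is needed to induce part of the NF-kB target genes in stimulated epithelium. Nfkbiz averaged 22.9 ± 0.657 FPKM in FFA_SIN, 38.5 ± 0.975 FPKM in FFA and 39.9 ± 1.03 FPKM in NC (SD, n = 3 each). It fell by 0.72 (SE 0.03) for FFA_SIN against FFA (limma adjusted p = 2.36e-07) and missed the threshold for FFA against NC (log2 fold change -0.05, SE 0.03, limma adjusted p = 0.226). Elf3, an epithelial ETS factor, was likewise low in FFA_SIN alone, with 18.1 ± 0.557 FPKM in FFA_SIN, 26.6 ± 0.589 FPKM in FFA and 26.1 ± 0.846 FPKM in NC (SD, n = 3 each). It fell by 0.53 (SE 0.03) for FFA_SIN against FFA (limma adjusted p = 2.71e-06).

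**Figure D4:**
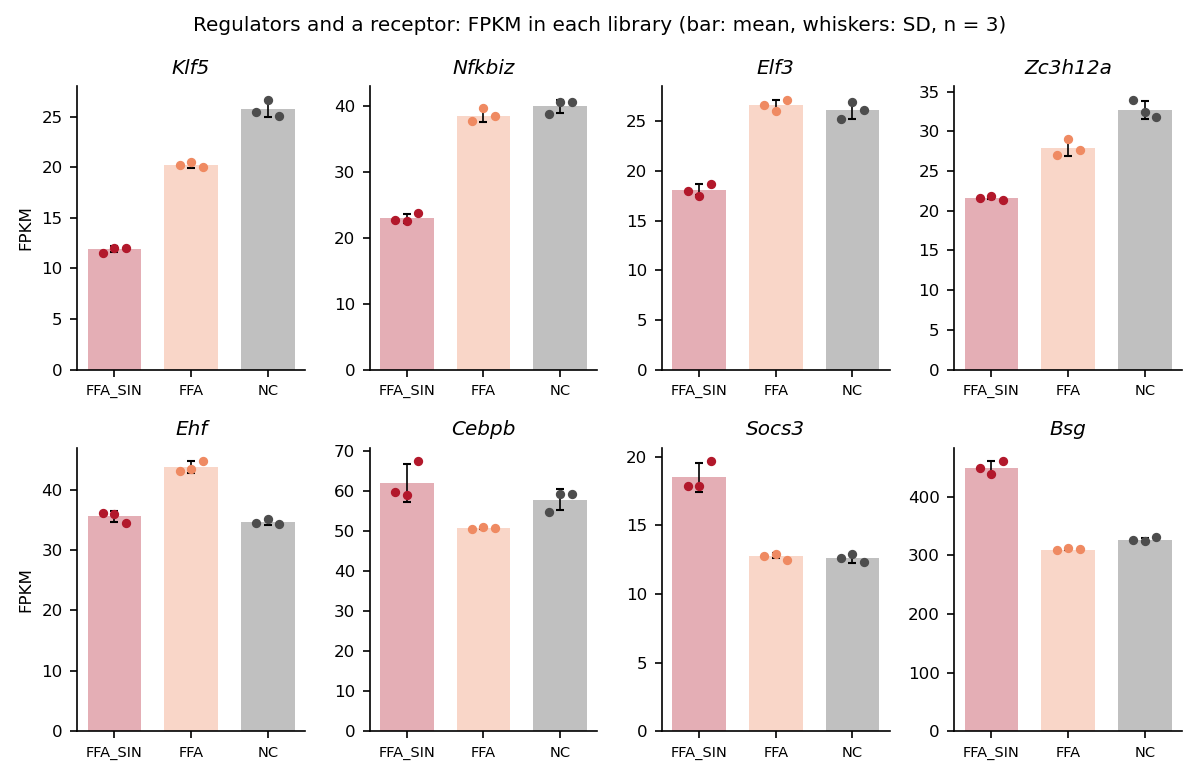
FPKM of 8 regulators and receptors of mucosal defence genes in the 9 libraries, each on its own linear axis from 0, with bars for means and whiskers for SD with n = 3, in the order FFA_SIN, FFA and NC. Klf5 and Zc3h12a are lower at each step, Nfkbiz and Elf3 are lower in FFA_SIN alone, Socs3 and Bsg are higher in FFA_SIN alone, and Ehf is highest in FFA.

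Zc3h12a, the RNase Regnase-1 that degrades inflammatory transcripts, averaged 21.6 FPKM in FFA_SIN, 27.9 FPKM in FFA and 32.7 FPKM in NC and fell in each comparison. Ehf, a close relative of Elf3, averaged 35.6 FPKM in FFA_SIN, 43.8 FPKM in FFA and 34.6 FPKM in NC. It rose for FFA over NC (log2 fold change 0.33, SE 0.03, limma adjusted p = 1.24e-05) and fell for FFA_SIN against FFA (-0.29, SE 0.03, limma adjusted p = 2.73e-05). Cebpb and Socs3, named here after their values were seen, were higher in FFA_SIN than in FFA, with Cebpb at 62.1 ± 4.76 FPKM in FFA_SIN, 50.9 ± 0.291 FPKM in FFA and 57.9 ± 2.68 FPKM in NC, and Socs3 at 18.5 ± 1.06, 12.8 ± 0.183 and 12.6 ± 0.325 FPKM in the same groups (SD, n = 3 each). Bsg, a receptor reported for S100a9, rose by 0.53 (SE 0.02) for FFA_SIN over FFA (limma adjusted p = 1.99e-07), with 450 ± 11.4 FPKM in FFA_SIN, 310 ± 1.46 FPKM in FFA and 327 ± 3.42 FPKM in NC (SD, n = 3 each). Tlr4, another receptor reported for calprotectin, averaged 4.88 FPKM in FFA_SIN, 4.63 FPKM in FFA and 4.17 FPKM in NC. It rose for FFA_SIN over NC (log2 fold change 0.19, SE 0.04, limma adjusted p = 0.00275). Il22ra1, a receptor chain for a cytokine that induces epithelial defence genes, averaged 21.9 FPKM in FFA_SIN, 20.9 FPKM in FFA and 24.4 FPKM in NC and fell for FFA against NC (log2 fold change -0.21, SE 0.03, limma adjusted p = 0.000379). Cebpd was under the filter, at 0.639 FPKM in FFA_SIN, 0.635 FPKM in FFA and 0.611 FPKM in NC.

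Among all other tested genes, those whose 9-library profile lay nearest to the median profile of the 10 were Cyp2c65, Plet1, Gpa33, Spink4, Lgals4 and Sycn, at Euclidean distances of 0.44 to 0.60 on the log2(FPKM + 1) scale after subtracting each gene's NC mean. The 10 genes themselves lay between 1.57 and 3.86 from that profile. Gpa33, at 0.324 FPKM in FFA_SIN, 0.884 FPKM in FFA and 3.84 FPKM in NC, passed the filter only through NC. Cyp2c65 was at 5.04, 4.52 and 4.32 FPKM in FFA_SIN, at 7.20, 6.91 and 7.60 FPKM in FFA and at 21.9, 22.4 and 21.6 FPKM in NC. Lgals4 was the most abundant of the 6, at 46.9, 46.2 and 44.9 FPKM in FFA_SIN, at 118, 111 and 114 FPKM in FFA and at 228, 212 and 234 FPKM in NC. In both genes the groups were apart and in the order of the 7 stepwise genes, which follows from how they were picked.

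**Figure D5:**
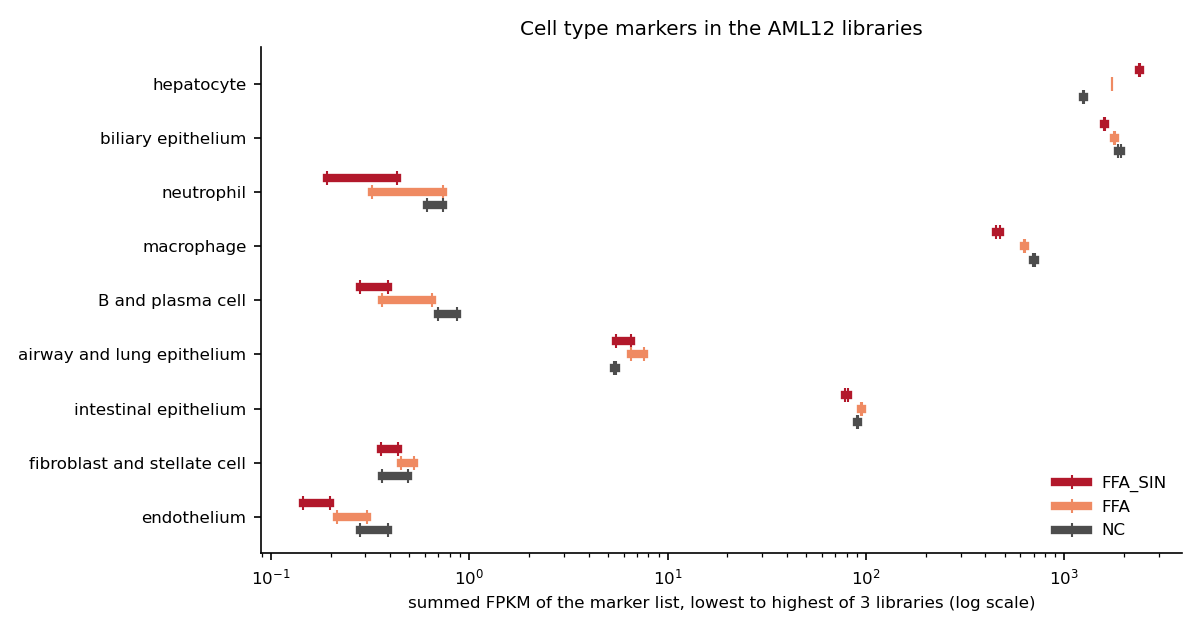
Summed FPKM of 9 cell type marker lists, shown as the range from the lowest to the highest of 3 libraries on a log axis, with FFA_SIN above FFA and NC within each list. The hepatocyte list runs from 2390 to 2410 FPKM in FFA_SIN and from 1240 to 1260 FPKM in NC, and the neutrophil, B and plasma cell, fibroblast and endothelial lists lie below 1 FPKM.

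The label of a hepatocyte line was checked against marker genes, and cell types that could carry the 10 genes were checked in the same way. All 10 hepatocyte markers were in the table, and their summed level was 2390 to 2410 FPKM in FFA_SIN, close to 1740 FPKM in every FFA library and 1240 to 1260 FPKM in NC. The sum was carried by Trf, Ttr and Alb, and Alb averaged 555 FPKM in FFA_SIN, 271 FPKM in FFA and 198 FPKM in NC. The list was not uniform, since Hnf4a, a transcription factor of hepatocytes, averaged 104 FPKM in FFA_SIN, 118 FPKM in FFA and 131 FPKM in NC and fell for FFA_SIN against FFA (limma adjusted p = 8.14e-05) and for FFA against NC (limma adjusted p = 0.000169). Apoa1, an apolipoprotein, averaged 2.58 FPKM in FFA_SIN, 3.57 FPKM in FFA and 3.92 FPKM in NC and fell for FFA_SIN against FFA (limma adjusted p = 0.00554). Cyp2e1 reached at most 0.164 FPKM. The 7 biliary markers summed to 1580 to 1600 FPKM in FFA_SIN, 1780 to 1800 FPKM in FFA and 1870 to 1940 FPKM in NC, most of it Krt19, with Epcam at most 0.00638 FPKM and Cftr at most 0.0219 FPKM. Krt7, a keratin of bile ducts, averaged 55.0 FPKM in FFA_SIN, 66.6 FPKM in FFA and 113 FPKM in NC. Other biliary markers ran the other way, with Sox9 at 27.9 FPKM in FFA_SIN, 21.4 FPKM in FFA and 12.6 FPKM in NC, and Spp1 at 503 FPKM in FFA_SIN, 417 FPKM in FFA and 402 FPKM in NC. The hepatocyte sum was thus higher and the biliary sum lower at each step, though single markers of both lists differed in direction, and their part in the values of the 10 genes was not tested.

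Of the neutrophil list 9 of 12 markers were matched, and all 9 were below 1 FPKM in every library. Their sum was 0.193 to 0.433 FPKM in FFA_SIN, 0.325 to 0.739 FPKM in FFA and 0.615 to 0.737 FPKM in NC, below Ltf and S100a9 in every library. The 5 matched B and plasma cell markers were also all below 1 FPKM and summed to 0.283 to 0.391 FPKM in FFA_SIN, 0.363 to 0.648 FPKM in FFA and 0.699 to 0.872 FPKM in NC. The macrophage sum, of 5 of 8 markers, was 454 to 475 FPKM in FFA_SIN, 628 to 635 FPKM in FFA and 698 to 715 FPKM in NC and was nearly all Cd14, with Csf1r at most 0.150 FPKM. In the airway and lung list 6 of 7 matched genes were below 1 FPKM, and the remainder was Foxj1, at 5.77 FPKM in FFA_SIN, 6.68 FPKM in FFA and 5.12 FPKM in NC. In the intestinal list 5 of 6 were below 1 FPKM, and the remainder was Vil1, at 77.3 to 80.9 FPKM in FFA_SIN, 93.7 to 94.6 FPKM in FFA and 89.6 to 90.4 FPKM in NC. All 7 fibroblast and stellate cell markers and all 5 endothelial markers were below 1 FPKM in every library. Every gene of the table had a value above 0 in some library, so a marker without reads would be missing from it. Whether the unmatched markers had reads is therefore not known.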

How the data were processed

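AML12 RNA was sequenced in 9 libraries, 3 per group. Extraction with the mirVana kit, an RNA integrity number of at least 7 and TruSeq Stranded Total RNA libraries are stated per the labels' protocols. Trimmomatic, HISAT2 and GRCm39 are named per the submitters' processing notes. Tool versions, read counting, gene annotation and use of strand are not stated there. The deposited values were taken as FPKM, a unit the table does not name. With GENCODE vM21 transcript lengths they came out as whole reads within 0.01 for 27063 of 30350 genes (89.2%), which gave the depths and reads quoted. No intervals were computed for single genes.

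Symbols were matched by identifier for 28734 genes (94.7%). The 11659 genes that averaged 1 FPKM or more entered limma 3.58.1 in R 4.3.3 as log2(FPKM + 1), a scale that understates the fold changes of low genes. All libraries shared a single fit with a mean per group and a variance trend, which also gave the SE values. Two-sided p-values were adjusted (Benjamini-Hochberg) over all genes of a comparison, with a threshold of 0.05. The fit was tested on simulated data. Promoters, neighbours and motifs were read with Python 3.11.15 from RefSeq tables of GRCm38.p6, used here only for sequence and gene order.

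The members, lists and tests were chosen with earlier results of these data known. From each list and comparison up to 4 called genes with the smallest adjusted p were named, besides 12 genes always named and the 6 of nearest profile. Pattern groups, neighbours, shared stretches of 50 bases and the naming of Cebpb, Socs3, Clca3a2, Ms4a10, S100a6, S100a7a and single cell type markers were added after values were seen. Libraries of a group differed by a chi-square per gene of 4.72 to 8.30 and libraries of different groups by 33.11 to 108.69, and no pair held identical values. Alternatives were no filter, a pseudocount of 0.1, median-of-ratios scaling, a replicate block, a fit of only the groups compared and leaving out each library.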

Additional observations from a re-analysis of the deposited data

How the results depend on the processing

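The number of genes changed and of listed genes changed stayed within 1.5 times its main value in all 3 comparisons under every alternative run. With a pseudocount of 0.1 the median log2 fold change of the 10 genes moved to -1.38 for FFA against NC (main -1.28), to -1.73 for FFA_SIN against FFA (main -1.58) and to -2.41 for FFA_SIN against NC (main -2.13), since a smaller pseudocount shrinks low genes less. Calls were followed for 31 tested genes outside the 10, and not for genes named only as cell type markers or by nearest profile. Slpi, Tmprss4, Clca3a2 and S100a7a were tested in only 11 of the 14 alternatives. Of the 93 pairs of a followed gene and a comparison, 5 lost their call under some alternative that tested the gene, 2 gained one and 0 reversed. Those lost were Slpi, Tlr4, Bsg and Cebpb for FFA against NC and Lrrfip2 for FFA_SIN against NC, and those gained were Saa3 for FFA against NC and Lcn2 for FFA_SIN against NC. Same-numbered libraries of different groups correlated by -0.015 to 0.174 in their deviations from the group means, so the numbers were not taken to pair the libraries. With the replicate block 4338 genes changed for FFA against NC, 3607 for FFA_SIN against FFA and 6006 for FFA_SIN against NC, where 4369, 3638 and 5977 changed without it. Depth limits S100a8, S100a9 and Scgb3a1 most, with as few as 45 reads for Scgb3a1 in a library. The study has 3 libraries per group of 1 cell line and no group given sinomenine without fatty acids.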
